A study of Homo sapiens with 9 samples.

Results

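The loci described here are transcription units whose nascent RNA stood at least 2-fold above or below that of wild-type cells, on the scale given next, both in an STK19 knockout and in the same knockout after STK19 had been put back, with and without ultraviolet light. Each locus is 1 deposited identifier, written in the style of UCSC transcript names and anchored at a transcription start site (TSS). The level of a locus is its mean deposited signal per 200-bp bin over the first 25 kb downstream of the TSS. A locus was kept when its level averaged 1 or more over the 9 libraries and when log2(level + 0.25) differed from WT by 1 or more, in the same direction, in both lines and in all 3 conditions, which makes 6 comparisons. Of 7936 identifiers that all 9 libraries shared, 3602 averaged 1 or more. The rule kept 36 of them. In KO and rescue, 17 were higher than in WT, which is 0.472% of the 3602, and 19 were lower, which is 0.527%. These shares describe the choice and carry no test, since the same values made it. Neither the gene behind an identifier nor its sequence is given here, because none of the 7936 matched the reference table used.

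The cells were RPE1, an hTERT-immortalised human retinal pigment epithelium line, and every group, the controls included, carried the iCas9 p53/puro-dKO background, an inducible Cas9 with p53 and the puromycin-resistance gene knocked out. The KO line was STK19-KO, the rescue line was STK19-KO+STK19-TY, the knockout with a tagged STK19 transgene, and the WT line had STK19 untouched. Cells of each line were mock-treated, or given 12 J/m2 of UV-C and labelled with 2 mM bromouridine for 30 min, starting 2.5 h or 15.5 h after the light by one field of the labels; another field starts it only after 3 h or 16 h. These conditions are called 3 h and 16 h here, and which start holds could not be settled. The labels give 1 library for each line and condition and do not say how many clones a line came from or how the transgene is driven.

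BrU-seq reads only freshly made RNA. Transcripts that took up the modified base bromouridine are captured with an antibody before sequencing, so the signal along a gene follows where RNA polymerase was working. UV-C leaves lesions that stall the polymerase, and STK19 takes part in the repair that is coupled to transcription. A line that passed through knockout and selection can also carry differences in gene activity or in chromosome content that predate the edit or arose beside it. A transgene line made from that knockout inherits them, whereas a difference caused by loss of the protein should return towards WT when the protein is restored. With 1 line of each genotype, an effect of the missing gene that the transgene did not restore and a difference between lines unrelated to STK19 cannot be told apart.

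The libraries differed in depth. The smallest step between values was 4.88 in the KO 3 h library, the shallowest, and 0.373 in the WT 16 h library, which was 13.1-fold deeper, while the authors had scaled all libraries to similar totals. Levels are therefore relative within a library. In the KO 3 h library 1 bin holding 1 step adds 0.0390 to a level, so values near that size are at the limit of what it could register. How strand was handled by the authors is not stated in the labels, and signal from a neighbour or an antisense transcript cannot be told apart from that of the locus. Nor can a difference in every cell be told apart from a difference in a share of the cells. Markers of the labelled cell type could not be checked without gene names.

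Among the 17 loci that were higher in KO and rescue, the median level in mock-treated cells was 8.17 in KO and 7.33 in rescue, against 0.769 in WT. In 9 of them the mean of the 3 WT libraries was under 1, so the locus was weakly transcribed in WT, and in 6 of them each WT library was under 1. In 11 of the 17, the lowest of the 6 KO and rescue libraries lay above the highest of the 3 WT libraries. The other 6 overlapped when the conditions were pooled.

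The locus whose smallest difference from WT was greatest in this set was uc002vwd.4. It had levels of 4.37 in KO, 2.98 in rescue and 0.0758 in WT under mock treatment. At 3 h the levels were 3.01 in KO, 4.43 in rescue and 0.109 in WT, and at 16 h they were 0.724 in KO, 0.704 in rescue and 0.0209 in WT. The KO and rescue libraries all stood above the WT ones, which were near 0, and the smallest of the 6 differences was 1.82 on the log2 scale with 0.25 added, which understates ratios at such low levels. The next locus by the same measure was uc003esh.5, with levels of 4.54 in KO, 3.95 in rescue and 0.390 in WT under mock treatment. It had 2.23 in KO, 2.38 in rescue and 0.456 in WT at 3 h, and 2.76 in KO, 3.31 in rescue and 0.615 in WT at 16 h. Again no WT library reached the lowest of the other lines.

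The 3 strongest loci of the set, chosen here for their level after it was seen, were strongly transcribed in WT too. The locus at row 5970 of the file order had a mock level of 325 in KO and 321 in rescue, against 104 in WT. The locus at row 818 had 230 in KO and 243 in rescue, against 77.1 in WT. The locus at row 3804 had 191 in KO and 203 in rescue, against 45.5 in WT. For these loci the lines differed by degree: in mock-treated cells the ratio of KO to WT was 3.12, 2.99 and 4.21 in that order, and the ratio of rescue to WT was 3.09, 3.15 and 4.46.

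Among the 19 loci that were lower in KO and rescue, the median mock level was 0.481 in KO and 0.370 in rescue, against 3.19 in WT. In 11 of them the mean of the 3 conditions was under 1 both in KO and in rescue, and in 7 all 6 of those libraries were under 1. In 15 of the 19, the highest KO or rescue library lay below the lowest WT library. The rule favours this as well, and no share over all tested was counted. The plot of levels by library shows both kinds of locus, those that were near silent in 1 genotype and those that kept a measurable level in all 9 libraries, which was 1 or more in 7 of the higher set and 6 of the lower set.

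**Figure D1:**
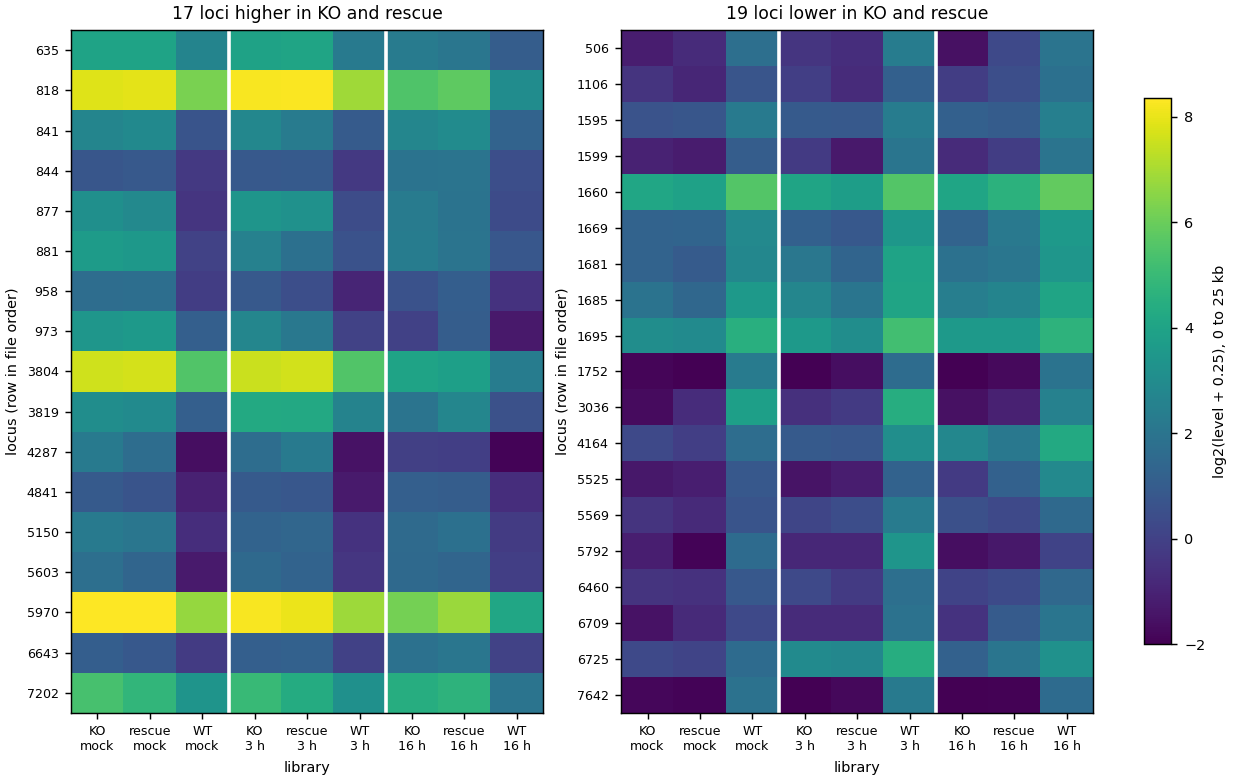
Level of each of the 36 loci in each of the 9 libraries, as log2(level + 0.25) on the colour scale, with loci in rows (numbered by their row in the file order) and libraries in columns grouped by condition and ordered KO, rescue, WT. Within each condition the KO and rescue columns differ from WT in the same direction, as the rule requires. In the lower set the rows 1752 and 7642 are at or near the floor of the scale in KO and rescue.

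The clearest loss by the fixed ranking was uc002inx.4, at row 3036. Its level was 0.0569 in KO, 0.370 in rescue and 14.2 in WT under mock treatment, then 0.429 in KO, 0.605 in rescue and 21.6 in WT at 3 h, and 0.0906 in KO, 0.239 in rescue and 5.61 in WT at 16 h. Its mock level in WT stood above the median of 3.81 for all tested identifiers in that library, and no KO or rescue library reached 1. The other locus named by the ranking was uc004cst.3. It had 0.0310 in KO, 0.0218 in rescue and 3.51 in WT under mock treatment. At 3 h it was listed at 0 in KO, with 0.0390 in rescue and 4.57 in WT, and at 16 h it was listed at 0 in KO, with 0.00885 in rescue and 2.80 in WT. The locus at row 1752 showed the same, being listed at 0 in 3 of the 6 KO and rescue libraries, which held at most 0.0781, while WT had 4.69 under mock treatment, 2.92 at 3 h and 3.56 at 16 h. No fold is given for either, because several libraries hold no signal.

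Loci with a graded difference were also present in the lower set. The locus at row 1660, the strongest of that set in WT, had 17.0 in KO, 14.9 in rescue and 47.0 in WT under mock treatment. It had 16.1 in KO, 13.3 in rescue and 47.6 in WT at 3 h, and 16.7 in KO, 24.6 in rescue and 57.0 in WT at 16 h. Its KO and rescue levels stayed below the lowest WT level in every condition.

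The threshold of 1 cut through a continuous range. The smallest differences inside it were 1.01 and 1.06 in the higher set and 1.02 and 1.06 in the lower set, and the nearest loci outside reached 0.95 and 0.95 on the higher side and 0.98 and 0.97 on the lower side. Within 0.1 of the threshold lay 4 higher loci inside and 8 outside, and 3 lower loci inside and 6 outside. Taken alone, KO was past 1 in all 3 conditions at 32 higher and 27 lower loci, and rescue at 39 higher and 31 lower loci. Both comparisons share the WT libraries. Had the 16 h condition been left out of the rule, 50 higher and 94 lower loci would have been kept. Without mock they would have been 28 and 27, and without 3 h 33 and 21.

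The difference between rescue and KO was then tested, a contrast that the rule limits but does not set: a locus that the transgene had returned to the WT level could not be among the 36. A linear model with line and condition was fitted with limma to all 3602 identifiers, and p-values were adjusted over all of them by Benjamini and Hochberg's method. The conditions stand in for repeats here, so a p-value reflects how steadily rescue and KO differed from condition to condition. It holds no spread between repeated cultures. None of the 36 loci passed an adjusted p of 0.05, and none had an unadjusted p under 0.05. Over all 3602 identifiers limma called 2, both higher in rescue, which is 0.0555%, and 45 had an unadjusted p under 0.05. The estimated rescue minus KO difference ran from -0.40 to 0.71 over the 36 loci, with a median of 0.00 and a median half-width of the 95% interval of 0.67. For uc002inx.4 the difference was 0.62 with an interval from -0.09 to 1.34. For uc002vwd.4 it was -0.01, with an interval from -0.82 to 0.80. These estimates average over the conditions. In the lower set the median rescue minus KO difference was -0.14 under mock treatment, -0.16 at 3 h and 0.28 at 16 h. At 16 h rescue was above KO, on the side of WT, at 15 of 19 lower loci. In the higher set it was above KO, away from WT, at 10 of 17, with a median of 0.18. Over all tested the 16 h median was 0.07, with 1984 of 3602 above KO. The single conditions were not tested. At a typical locus, a move of rescue towards WT smaller than the median half-width could not have been seen. The interval is not adjusted over the 3602 identifiers, so a move had to be larger still to be called.

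The reach of the differences along the DNA was read in 5-kb windows over 100 kb on either side of the TSS, using the mean level of each line over the conditions. In the window just downstream of the TSS, from 0 to 5 kb, 16 of the 17 higher loci and 17 of the 19 lower loci were past 1 in their own direction in both lines. These windows lie inside the region that chose the loci. Just upstream, from -5 to 0 kb, the number was 6 of 17 and 6 of 19, and in the next window upstream it was 2 of 17 and 2 of 19. Levels were under 1 in every line at 8 of the 17 and 11 of the 19 from -5 to 0 kb, and at 14 of the 17 and 16 of the 19 from -10 to -5 kb, so a difference had little room to show upstream. Beyond the chosen region, from 25 to 30 kb, 11 of 17 and 11 of 19 were past 1, and from 60 to 65 kb 3 of 17 and 8 of 19 were. Levels were under 1 in every line at 7 of the 17 and 10 of the 19 from 25 to 30 kb. From 60 to 65 kb they were at 10 of the 17 and 11 of the 19. The share of all tested identifiers past 1 in any of these windows was not counted. A run of windows past 1 starting at the TSS and going downstream had a median length of 20 kb in the higher set, up to 90 kb, and 25 kb in the lower set, up to 100 kb. Going upstream the median was 0 in both sets, with a maximum of 10 kb in the higher set and 25 kb in the lower set. The loci were chosen on 0 to 25 kb, the upstream signal was mostly low and the downstream signal was often low. These lengths therefore do not show where a difference begins or ends.

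**Figure D2:**
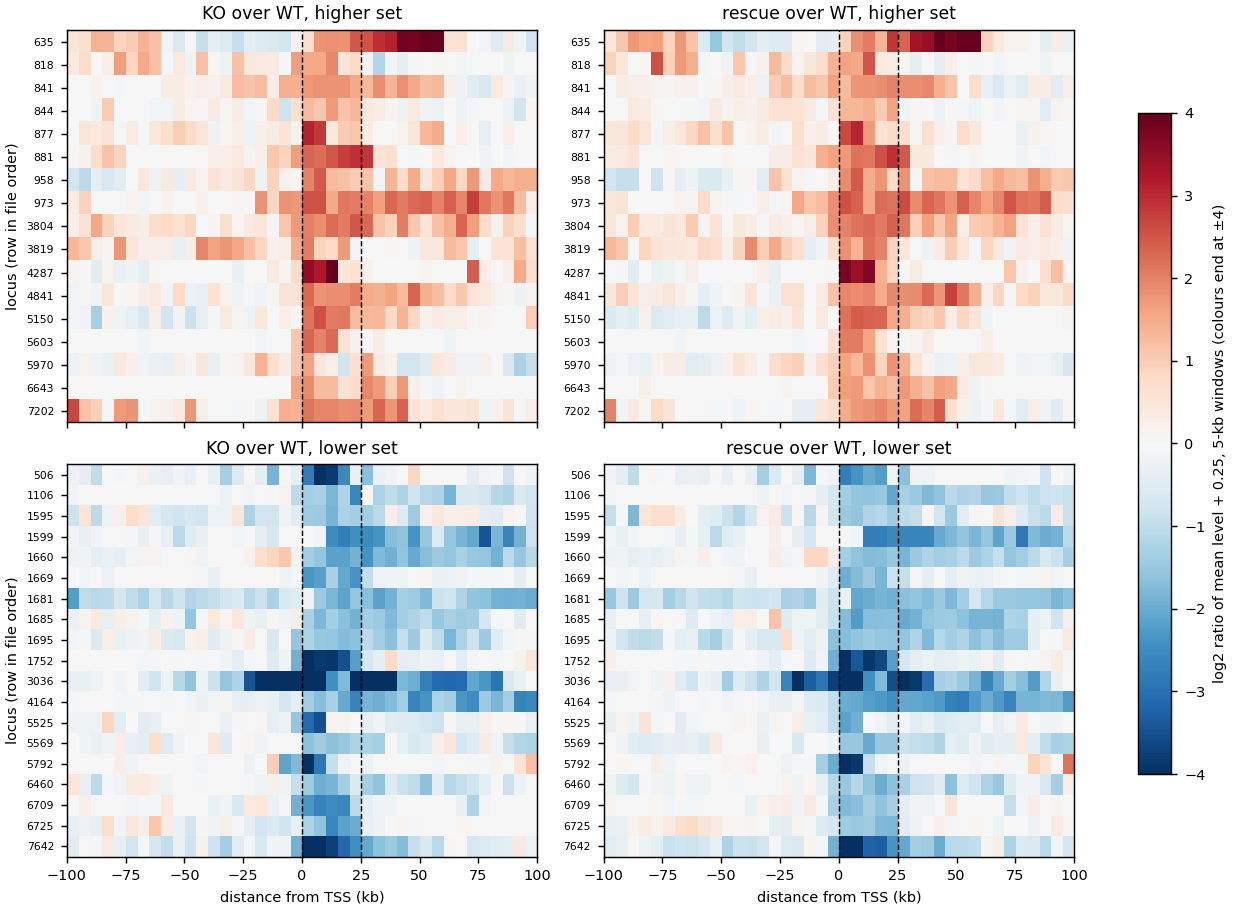
Log2 ratio of KO to WT (left) and rescue to WT (right) in 5-kb windows against distance from the TSS in kb, for the 17 higher loci (top) and 19 lower loci (bottom), from levels averaged over the 3 conditions with 0.25 added. Dashed lines mark the 0 to 25 kb region that chose the loci. Between the dashed lines the rows are coloured as the rule requires, the colour ends at different distances downstream, and upstream most levels were low in every line.

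The locus uc002inx.4 was the exception with the longest reach upstream. Its run of windows past 1 extended 25 kb upstream and 85 kb downstream of the TSS. From 25 to 1 kb upstream its level was 0.129 in KO, 1.01 in rescue and 14.7 in WT under mock treatment, 0.163 in KO, 0.427 in rescue and 9.98 in WT at 3 h, and 0.0629 in KO, 0.678 in rescue and 6.98 in WT at 16 h. Signal was thus low in KO and rescue on both sides of this TSS. In the same upstream window, limma tested 2296 identifiers with a mean level of 1 or more. Only 8 of the 36 loci were among them, and some of those passed only through the lines where they are high, so their calls are not read as support: 1 was called higher and 1 lower both in KO against WT, where 1.79% of all tested were called higher and 0.871% lower, and in rescue against WT, where these shares were 2.31% and 1.61%. In the downstream window from 25 to 100 kb 14 of the 36 were among 3492 tested. There 1 was called higher and 3 lower in KO against WT, with 1.23% and 0.659% of all tested called in those directions, and 3 higher and 4 lower in rescue against WT, with 1.8% and 0.974%. These calls are not read as support either. Some of the 14 also passed the filter only through the lines where they are high. Transcripts of the loci may also run on into this window from the region that chose them.

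Several loci stood close together in the row order, which gives no distance in bp. All 9 libraries list the shared identifiers in a common order. Signal profiles show that rows next to each other often cover overlapping DNA. After the local mean was taken off, the profiles of 45.4% of next neighbours among sampled rows matched when shifted against each other. The share was 16.7% at 2 rows apart and 0.202% at 5 rows, with 0 of 1859 pairs at 500 rows. By the same measure 0 of the 630 pairs of the 36 loci overlapped. The measure asked for at least 250 shared bins and matched only 45.4% of next neighbours. A pair without a match is therefore not shown to be separate. With 50 rows or fewer allowed between neighbouring members of a set and at least 3 members asked for, both chosen after the positions were seen, 5 higher loci fell between rows 818 and 881 and 5 lower loci between rows 1660 and 1695. The remaining 12 higher and 14 lower loci were outside these 2 groups but not all alone. In the higher set rows 958 and 973 and rows 3804 and 3819 lay within 50 rows of each other, as did rows 1595 and 1599, rows 5525 and 5569 and rows 6709 and 6725 in the lower set. Rows 1595 and 1599 also lay in a run of 11 identifiers below WT in both lines, from row 1588 to row 1618.

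In the group of lower loci, identifiers that the rule did not pick also stood below WT. Between rows 1660 and 1695 there were 8 such tested identifiers. Their median difference from WT, averaged over the conditions, was -1.30 in KO and -1.14 in rescue, and 8 of 8 were below WT in both lines. Among these 8, rows 1668 and 1682 were the nearest misses of the rule on the lower side, at 0.98 and 0.97. The window of row 1682 also overlapped that of the locus at row 1681, so the 8 are not all separate from the set. All 3566 tested identifiers outside the 2 sets had a median of -0.08 in KO and -0.13 in rescue, and 1866 of them were below in both lines. The longest unbroken run of tested identifiers below WT in both lines held 27, from row 1632 to row 1704, and the next longest held 15. Of those 27, 5 were in the lower set, and the other 22 had a median of -0.91 in KO and -1.01 in rescue. A run of 15, from row 4130 to row 4164, held 1 locus of the lower set, at row 4164, and its other 14 had a median of -0.41 in KO and -0.67 in rescue. Another run of 15, from row 1465 to row 1496, held 0 loci of the set, with a median of -0.50 in KO and -0.58 in rescue. At its far end, in row order, the run of 27 faded quickly. The locus at row 1695 was at -1.40 in KO and -1.59 in rescue, and the next tested identifier, at row 1699, was at -0.09 in KO and -0.21 in rescue.

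Most of the group of higher loci also stood among raised neighbours, by a smaller amount. The exception was row 818, which opens the group: the 10 tested identifiers on each side of it had a median of -0.07 in KO and -0.10 in rescue. Between rows 818 and 881, 24 tested identifiers that the rule did not pick had a median difference of 0.55 in KO and 0.46 in rescue, and 20 of 24 were above WT in both lines, where 1201 of the 3566 were. By condition their median was lowest in rescue at 3 h, at 0.24 with 15 of 24 above WT. It was highest in rescue at 16 h, at 0.86 with 23 of 24 above WT. The longest run above WT in both lines held 23 identifiers, from row 844 to row 885. It held 3 loci of the higher set, and the other 20 had a median of 0.83 in KO and 0.63 in rescue. The next longest run held 9, from row 3547 to row 3560. It held 0 loci of the set, and its median was further from WT, at 1.32 in KO and 1.003 in rescue, so raised stretches also occurred away from the set. In row order the run of 23 ended sharply too, with 1.11 in KO and 1.02 in rescue at row 885. The next tested identifier, at row 887, was at -0.74 in KO and -0.84 in rescue.

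**Figure D3:**
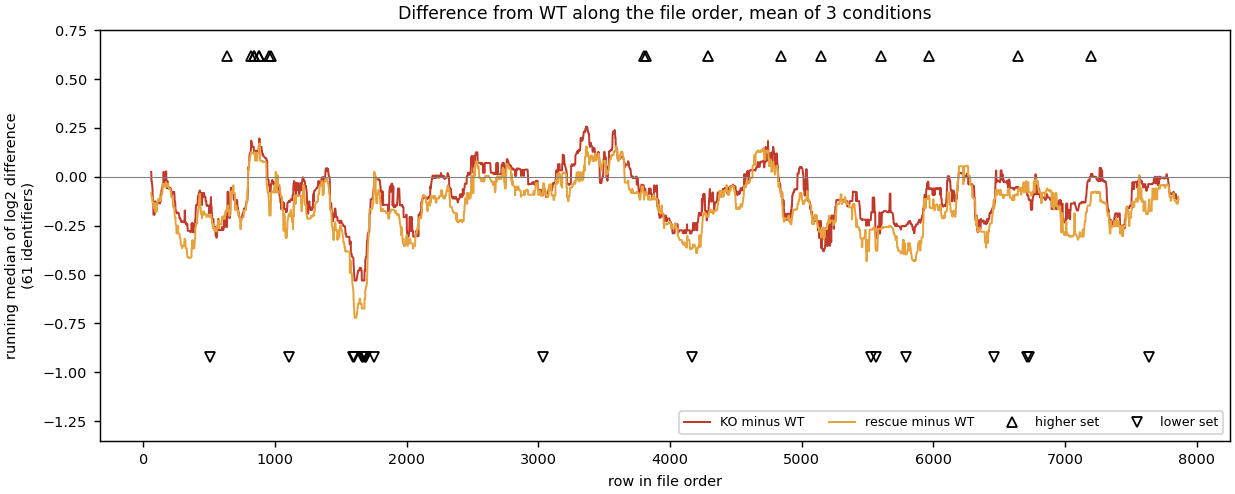
Running median over 61 tested identifiers of the log2 difference from WT, averaged over the 3 conditions, against row in the file order, for KO and rescue, with triangles marking the 17 higher and 19 lower loci at fixed heights. The deepest dip, -0.53 in KO and -0.72 in rescue near row 1605, lies where lower loci crowd together, and the highest value of rescue, 0.17 at row 882, lies where higher loci do. The highest value of KO, 0.26 at row 3365, lies where there are none of either set.

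**Figure D4:**
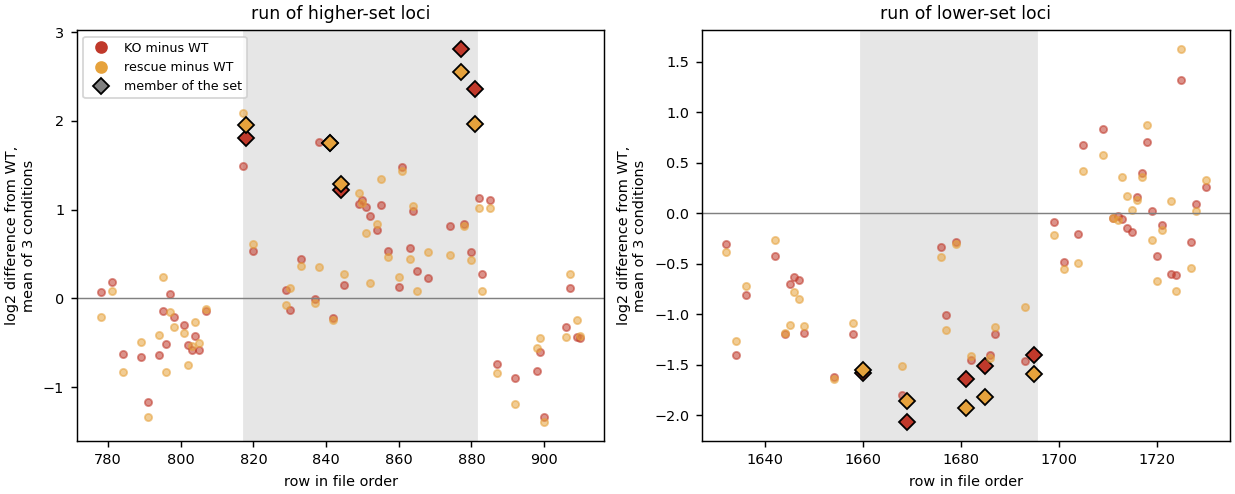
Log2 difference from WT averaged over the 3 conditions for each tested identifier against its row in the file order, around the group of 5 higher loci (left) and of 5 lower loci (right), whose spans are shaded. Diamonds are members of the sets and circles are other identifiers, which lie mostly above 0 in the left span and all below 0 in the right span.

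Neighbours were also read around the loci outside the 2 groups. Over the 10 tested identifiers on each side of each of those 12 higher loci, the median difference from WT had a median of -0.04 in KO and -0.13 in rescue. Around the 14 lower loci it was -0.20 in KO and -0.29 in rescue. The values for all 3566 were -0.08 in KO and -0.13 in rescue. Some of these neighbourhoods hold 2 loci of a set. Identifiers whose windows overlapped a locus of the sets, with a TSS at least 25 kb from it, could also be read. There were 15 such tested neighbours, of 13 loci. In the higher set 3 of 12 pairs and in the lower set 1 of 4 moved with the locus in all 6 comparisons, and 0 of either were past 1 in all 6. The share of all tested identifiers that did so was not counted. Averaged over the 6 comparisons, the neighbours' difference from WT ran from -0.41 to 1.79 in the 12 pairs, with a median of 0.11. In the 4 pairs it ran from -1.44 to -0.11, with a median of -0.48.

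The response to UV is a contrast that the rule did not use, but it comes from the same levels that chose the loci. The response was tested with limma for each time against mock over the 3 lines. Its p-value measures the spread between lines, of which KO and rescue share an origin. The 9 higher loci with a WT mean under 1, and the 11 lower loci with KO and rescue means under 1, passed the level filter through the lines where they are high. The calls are therefore given beside the shares over all tested and are not read as support. At 3 h, 1 of the 17 higher loci was called higher and 2 lower, and 4 of the 19 lower loci were called higher and 0 lower. Over all 3602 tested, 11.4% were called higher and 5.8% lower. Without the rescue line, 1 higher locus and 1 lower locus were called, both higher, and without the WT line 1 of the lower set was called higher. Per line, the median log2 response of the higher set was -0.07 in KO, -0.04 in rescue and 0.14 in WT, and that of the lower set was 0.61 in KO, 0.17 in rescue and 0.60 in WT. Over all tested identifiers the medians were 0.16 in KO, 0.12 in rescue and 0.37 in WT.

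The strongest 3 h response among the 36 was at row 6725, a lower-set locus. Its level was 0.973 in KO, 0.849 in rescue and 2.79 in WT under mock treatment, 7.42 in KO, 6.60 in rescue and 21.6 in WT at 3 h, and 2.10 in KO, 3.76 in rescue and 9.05 in WT at 16 h. All 3 lines were high at 3 h and in between at 16 h, with WT the highest at each time. It rose by 2.71 on the log2 scale at 3 h (SE 0.27, limma adjusted p = 3.19e-07) and by 1.47 at 16 h (SE 0.27, limma adjusted p = 0.000351). In the higher set, the locus at row 3819 had 8.17 in KO, 7.44 in rescue and 1.97 in WT under mock treatment and 19.1 in KO, 18.7 in rescue and 5.89 in WT at 3 h. It was high at 3 h in every line, by 1.32 on the log2 scale (SE 0.26, limma adjusted p = 0.00106).

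At 16 h the calls in the 2 sets ran in different directions. Of the 17 higher loci 7 fell and 1 rose, and of the 19 lower loci 8 rose and 0 fell, by limma over the 3 lines. Over all 3602 tested, 8.52% fell and 28% rose. The median response was -0.69 in the higher set and 0.66 in the lower set, against 0.40 over all tested. Trimmed-mean scaling of the libraries moved the median of all tested identifiers by -0.29, so the sets are best read against it: the higher set lay -1.09 from it with the deposited scaling and -1.07 with trimmed-mean scaling, and the lower set 0.26 and 0.31. With that scaling 9 higher loci fell and 0 rose, 4 lower loci rose and 0 fell, and over all tested 433 rose and 456 fell, where the deposited scaling gave 1008 and 307. Leaving out 1 line at a time, between 5 and 9 of the higher set fell, and between 3 and 6 of the lower set rose, the 3 without the rescue line. The loci outside the 2 groups gave 6 of 12 higher loci that fell and 6 of 14 lower loci that rose.

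Per line, the median 16 h response of the higher set was -1.08 in KO, -0.63 in rescue and -0.27 in WT. That of the lower set was 0.48 in KO, 0.996 in rescue and 0.63 in WT. Over all tested identifiers it was 0.38 in KO, 0.51 in rescue and 0.25 in WT. In the higher set 9 of 17 loci were below mock in all 3 lines and 4 were above in all 3, and in the lower set 12 of 19 were above mock in all 3 lines and 1 was below in all 3. Over all 3602 tested, 1643 were above mock in all 3 lines and 504 below. At 3 h, 5 of the 17 higher loci were above mock in all 3 lines, 3 were below in all 3, and 5 were below in KO and rescue but above in WT. In the lower set 13 of 19 were above in all 3 lines and 0 below at that time, and over all tested 1583 were above and 651 below. Below mock in KO and rescue but above in WT at 3 h were 3 of the 19 lower loci and 384 of all 3602. At 16 h that pattern held at 4 of 17 higher loci, 0 of 19 lower loci and 181 of 3602. The reverse pattern held at 1, 0 and 126 of these at 3 h, and at 0, 0 and 551 at 16 h.

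**Figure D5:**
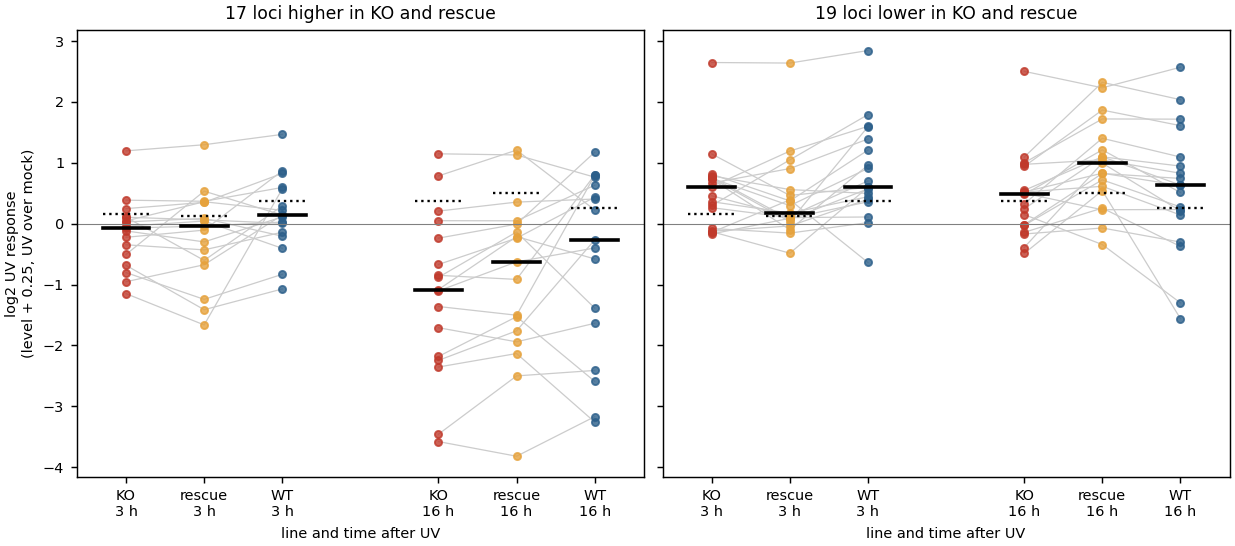
Log2 response to UV, as level + 0.25 at 3 h or 16 h over mock, of each locus in KO, rescue and WT, for the 17 higher loci (left) and 19 lower loci (right). Each point is a locus, grey lines join its 3 lines, solid bars are the medians of the set and dotted bars those of all 3602 tested identifiers. At 16 h the medians of the higher set lie below the dotted bars in each line, and those of the lower set above them.

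The 3 strongest higher loci were among those that fell at 16 h. At row 3804 the levels at 16 h were 15.8 in KO, 14.1 in rescue and 4.83 in WT, against mock levels of 191, 203 and 45.5 in those lines. It fell by 3.52 on the log2 scale (SE 0.31, limma adjusted p = 2.43e-08), the steepest fall among the 36. The fall was seen in all 3 lines, and at 16 h KO was still 3.27-fold and rescue 2.92-fold the level of WT. At row 818 the 16 h levels were 44.8 in KO, 55.1 in rescue and 7.83 in WT, and it fell by 2.58 (SE 0.36, limma adjusted p = 1.71e-05). At 3 h the same locus had 301 in KO, 313 in rescue and 117 in WT, above the mock level in every line, although the limma test at 3 h did not call it. At row 5970 the 16 h levels were 71.3 in KO, 111 in rescue and 17.1 in WT, and it fell by 2.10 (SE 0.38, limma adjusted p = 0.000298).

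The locus at row 973 fell at both times. Its level was 10.6 in KO, 11.5 in rescue and 1.94 in WT under mock treatment, 6.52 in KO, 4.16 in rescue and 0.790 in WT at 3 h, and 0.740 in KO, 1.82 in rescue and 0.161 in WT at 16 h. Each line was lower at each later time. The fall was 1.06 at 3 h (SE 0.31, limma adjusted p = 0.0211) and 2.79 at 16 h (SE 0.31, limma adjusted p = 7.80e-07). The locus uc002vwd.4, whose levels are given above, fell by 1.42 at 16 h (SE 0.39, limma adjusted p = 0.00762), with responses of -2.25 in KO, -1.76 in rescue and -0.27 in WT. That call was lost without the KO line (adjusted p = 0.0857), without the rescue line (0.153) and without the filter on level (0.107). The WT levels of this locus were too near 0 for a fall to show on this scale.

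The 1 higher locus that rose at 16 h was at row 844, inside the group of raised neighbours. It had 1.47 in KO, 1.58 in rescue and 0.574 in WT under mock treatment and 3.56 in KO, 3.75 in rescue and 1.15 in WT at 16 h. All 3 lines were higher at 16 h than under mock treatment, and the estimate was 1.01 on the log2 scale (SE 0.31, limma adjusted p = 0.0135).

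Among the lower loci, the one at row 4164 rose at both times. Its level was 0.962 in KO, 0.685 in rescue and 3.02 in WT under mock treatment, 1.68 in KO, 1.503 in rescue and 8.34 in WT at 3 h, and 6.63 in KO, 4.15 in rescue and 19.2 in WT at 16 h. Every line was higher at each later time, and at 16 h KO and rescue had passed the mock level of WT. The estimates were 0.99 at 3 h (SE 0.27, limma adjusted p = 0.0137) and 2.44 at 16 h (SE 0.27, limma adjusted p = 7.80e-07). The 2 lower loci named by the ranking did not pass the test at either time. For uc004cst.3 the estimate at 16 h was -0.18 (SE 0.43, limma adjusted p = 0.763). For uc002inx.4 it was 0.74 at 3 h (SE 0.35, limma adjusted p = 0.146) and -0.50 at 16 h (SE 0.35, limma adjusted p = 0.262), where WT alone had 21.6 at 3 h and 5.61 at 16 h, against 14.2 under mock treatment. These 2 estimates depend on the window. With the level from 0 to 10 kb the 3 h estimate was 1.34 and passed (limma adjusted p = 0.0163). With the level from 0 to 100 kb it was -0.34 (limma adjusted p = 0.45), and the 16 h estimate was -0.95 and passed (limma adjusted p = 0.0149).

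Whether KO and rescue together responded differently from WT was tested by adding terms for them at each time to the limma model, which leaves 2 residual degrees of freedom. The contrast is formed from the same differences that chose the loci, so it is not separate evidence. At 3 h limma called 0 of the 36 loci and 1 had an unadjusted p under 0.05, and over all tested 0% were called and 143 identifiers had an unadjusted p under 0.05. At 16 h 1 of the 36 was called and 4 had an unadjusted p under 0.05. Over all tested 1.58% were called higher and 0.444% lower, and 629 of the 3602 had an unadjusted p under 0.05.

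The locus called at 16 h was uc001ivi.3, at row 881, named here after its values were seen. Its level was 12.6 in KO, 11.1 in rescue and 0.769 in WT under mock treatment, 5.54 in KO, 3.32 in rescue and 1.26 in WT at 3 h, and 4.75 in KO, 3.74 in rescue and 1.51 in WT at 16 h. It was lower after UV in KO and rescue and higher in WT, so that the gap narrowed but did not close. The response of KO and rescue minus that of WT was -2.22 at 16 h (SE 0.50, limma adjusted p = 0.0172), and the same contrast at 3 h was -1.98 (SE 0.50, limma adjusted p = 0.436). Without the filter on level the 16 h call was lost (adjusted p = 0.291).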

How the data were processed

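Nascent RNA was measured in 9 BrU-seq libraries, grouped by their titles. Per the file headers, the deposited signal is coverage in 1001 bins of 200 bp, centred on a TSS, and its totals show that the authors had scaled it. Among the tools in the submitters' processing notes are the aligner STAR 2.7.7a and the suite HOMER 4.8.2, and the build is GRCh38. Of 9805 identifiers, the 7936 in all libraries were used. Levels, the 36 loci and their neighbours were computed in Python 3.11.15, and tests were run with limma 3.58.1 (R 4.3.3, trend, empirical Bayes) on log2(level + 0.25) at a mean level of at least 1, since coverage does not suit count models. The fits were tested on simulated data. Members and lists were chosen with earlier results of these data known. The named loci are the 2 of each set whose smallest difference from WT is greatest, plus uc001ivi.3. Another 3 tables of averages were not used. The alternatives tried were the pseudocount, the level filter, the window, trimmed-mean scaling, and lines, conditions or the KO 3 h library left out. Depth is given as relative depth, because coverage allows no counting interval.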

Additional observations from a re-analysis of the deposited data

Results flagged for a closer look

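Several responses to UV ran one way in KO and rescue and the other way in WT. For uc001ivi.3 the response of KO and rescue minus that of WT was -2.22 at 16 h (limma adjusted p = 0.0172, and 0.291 without the filter on level). That contrast is built from the differences that chose the locus, which was named after its values were seen, so the p is not independent evidence. The WT response alone was 0.57 at 3 h, where limma did not call the difference (adjusted p = 0.436), and 0.79 at 16 h. The locus uc003esh.5 was lower after UV in KO and rescue, while its WT response was 0.14 at 3 h and 0.44 at 16 h, and limma did not call that difference at either time (adjusted p = 0.995 at 3 h and 0.446 at 16 h). The higher set as a whole had a median 3 h response of -0.07 in KO and -0.04 in rescue, against 0.14 in WT. Over all tested identifiers the 3 h medians were 0.16 in KO, 0.12 in rescue and 0.37 in WT, so WT was the highest there as well. The difference between the medians of the set was not tested.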

How the results depend on the processing

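No paired analysis was possible because each line and condition had 1 library, so replicate numbers pair nothing, and lines and conditions served as blocks. The count of higher loci was 17, and it was 8 with a pseudocount of 1, 11 with a mean level of at least 2, 4 with a difference of 1.5 and 10 with shared stretches counted once. Leaving out 1 condition gave 28 to 50. The count of lower loci was 19, and it was 9 with a mean level of at least 2, 9 with the level from 0 to 100 kb, 6 with a difference of 1.5 and 3 with stretches counted once, and 21 to 94 without 1 condition, the 94 without 16 h. With the level from 0 to 10 kb, 13 of the 17 higher and 10 of the 19 lower loci were kept, among 22 and 18. From 0 to 100 kb 6 of each were kept, among 16 and 9. The planned criterion for shared stretches gave 12, then 31 at an r of 0.9 and 4 at 0.7, and it also joined rows 500 apart. The criterion on profiles without their local mean, added after seeing the data, gave 36. Groups along the row order, also defined after seeing the data, held 5 loci each at 50 rows, 7 higher and 8 lower at 100 rows, and 8 of each at 200 rows.

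At 3 h 7 loci were called, 2 without the filter on level, 3 with the level from 0 to 100 kb, and 2 to 6 without 1 line. At 16 h 16 were called, 9 without the filter and 8 to 17 without 1 line. Lower loci that rose at 3 h numbered 4, then 1 without the filter, 1 with the level from 0 to 100 kb, and 1 to 4 without 1 line. At 16 h 8 lower loci rose, 3 without the filter, 4 with trimmed-mean scaling, 5 from 0 to 10 kb, 4 from 0 to 100 kb, and 3 to 6 without 1 line. The difference in response between KO with rescue and WT at 16 h was called at 1 locus, and at 0 without the filter. Rescue against KO gave 0 under each of 9 alternatives.

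In the upstream window 2 loci were called in KO against WT, 1 without the filter, 1 without the KO 3 h library, 1 without the condition block, and 1 to 4 without 1 condition. For rescue against WT the 2 became 1 with a pseudocount of 1, 0 without the filter, 1 without the condition block, and 1 to 3 without 1 condition. In the downstream window 4 loci were called in KO against WT, 0 without the condition block and 2 to 11 without 1 condition (11 without 16 h), and 7 in rescue against WT, 1 without that block and 2 to 11 without 1 condition (11 without 16 h). Depth limits the low side of each locus: in the KO 3 h library a level of 0.0390 is 1 step in 1 bin.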
